A study of Mus musculus with 27 samples.

Results

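The insulin-like growth factor 1 gene and the genes of the proteins that carry IGFs in blood were followed in the livers of old mice on 4 diet regimes. The group was taken as 10 listed gene symbols, namely Igf1, Igfals, Igf2r and Igfbp1 to Igfbp7, out of 18820 genes that the array could name. Each of the 10 had a transcript cluster (the set of array probes summed into a single value) with only that symbol, and all 10 passed the filter on low and flat values that left 13993 genes. The rule is a list of symbols and sets no threshold on a measured value.

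The livers of 27 male C57BL/6J mice aged 28 months were profiled, each on its own Affymetrix Mouse Gene 1.1 ST array. From 9 weeks of age 8 mice ate the control diet AIN-93W ad libitum (C), 5 mice received daily portions with 30% less energy (CR) and 7 mice ate a medium-fat diet ad libitum with 25% of its energy from fat (MF). A further 7 mice were raised on CR and moved at 24 months to the MF diet, so that they had been on it for 4 months (CR-MF). All mice were of the same inbred strain, with no genetic change named, and were fasted for 4 h before and 6 h after a gavage of vehicle, and the CR mice were given a reduced portion shortly before the first fast. The feeding before the fast therefore differed between CR and the ad libitum groups, and its part in the results was not tested. The authors deposited log2 intensities from Robust Multiarray Average (RMA), in which a difference of 1 means a doubling. Differences were tested with limma over all 27 arrays, an adjusted p is a Benjamini-Hochberg value over the 13993 genes, and a gene was called at an adjusted p of at most 0.05.

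IGF1 is a growth-promoting hormone, made for the circulation mostly by the liver, where the growth hormone receptor drives its transcription through STAT5. In plasma nearly all of it is bound. IGFBP3 and IGFBP5 hold it in a large complex with the acid-labile subunit, the product of Igfals, while IGFBP1, IGFBP2, IGFBP4 and IGFBP6 form small complexes that can leave the vessels. Hepatic Igfbp1 is known to be repressed by insulin through FOXO factors and to rise with fasting, and Igfbp2 is known to rise when food or insulin is low.

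The sequence upstream of 3 members is shown because the results below turn on them: Igfbp2 was the member that differed between diets, Igfbp1 varied most among mice, and Igfals varied together with Igfbp4. Each is the 250 bases before a RefSeq start site on GRCm38.p6, 5′ to 3′ on the strand of the gene, which is the plus strand for all 3. Igfbp1 lies at chr11:7197537-7197786, Igfbp2 at chr1:72824230-72824479 and Igfals at chr17:24877594-24877843. Capitals mark CAAAACA (the core of insulin response elements, a FOXO motif) in Igfbp1, the GC box GGGCGG in Igfbp2, and TTCNNNGAA, the STAT5 motif, in Igfals.
Igfbp1: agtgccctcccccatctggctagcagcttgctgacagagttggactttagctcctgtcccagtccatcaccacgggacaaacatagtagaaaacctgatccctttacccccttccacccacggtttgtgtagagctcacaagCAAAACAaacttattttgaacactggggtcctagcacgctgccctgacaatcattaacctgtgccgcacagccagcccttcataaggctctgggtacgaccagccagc
Igfbp2: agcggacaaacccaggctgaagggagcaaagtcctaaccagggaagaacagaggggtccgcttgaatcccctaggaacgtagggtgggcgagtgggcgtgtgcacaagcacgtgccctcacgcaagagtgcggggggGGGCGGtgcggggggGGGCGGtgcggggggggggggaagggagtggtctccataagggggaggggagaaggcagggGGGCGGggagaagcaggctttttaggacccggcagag
Igfals: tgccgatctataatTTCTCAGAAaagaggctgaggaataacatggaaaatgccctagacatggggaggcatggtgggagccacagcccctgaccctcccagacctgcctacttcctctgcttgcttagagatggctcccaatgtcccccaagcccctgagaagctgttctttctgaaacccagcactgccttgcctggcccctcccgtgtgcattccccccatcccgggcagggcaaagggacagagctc

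The letter strings searched on both strands of the 13 windows that RefSeq start sites give the 10 members were CAAAACA, the FOXO motif GTAAACA, TTCNNNGAA and GGGCGG, and no match of one overlapped a match of another. CAAAACA was found in the Igfbp1 window alone among the members and on the strand of the gene, and 5.56% of the 32851 windows of 250 bases in the whole table hold it. The Igfbp2 window above holds GGGCGG at 113, 98 and 37 bases before the start, a string found in 32.7% of all windows, and neither FOXO string nor the STAT5 motif was found there. Igfals has 3 start sites, and TTCNNNGAA, held by 7.02% of all windows, was found in the windows of 2 of them, 236 bases before the first and 58 before the second. GTAAACA was found once, on the opposite strand of the second Igfals window, against 3.17% of all windows. The Igf1 window held none of the 4 strings. Several members are neighbours in the genome. Igfbp2 and Igfbp5 lie tail to tail on chromosome 1 with 5590 bases and no other gene of the table between them, and Igfbp1 and Igfbp3 lie tail to tail on chromosome 11 with 3539 bases between them.

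Igfbp2, a small-complex carrier of IGF1 and IGF2, was the only member called in any of the 6 comparisons between diets. The 5 CR mice had log2 levels of 10.72, 10.96, 11.13, 11.35 and 11.43. The 7 MF mice ranged from 8.35 to 10.10 with a median of 9.55, all below every CR mouse. The 8 C mice lay between, from 9.49 to 10.46 with a median of 9.90, also all below every CR mouse. The share of all genes with such a separation was not counted. The 7 CR-MF mice ran from 9.69 to 11.11 with a median of 10.41, so that this group overlapped each of the others. As means ± SD the order was CR at 11.12 ± 0.29 (n = 5), CR-MF at 10.36 ± 0.48 (n = 7), C at 9.99 ± 0.38 (n = 8) and MF at 9.28 ± 0.71 (n = 7). Within this order no neighbouring pair passed the adjusted threshold, and the calls lay between groups farther apart.

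**Figure D1:**
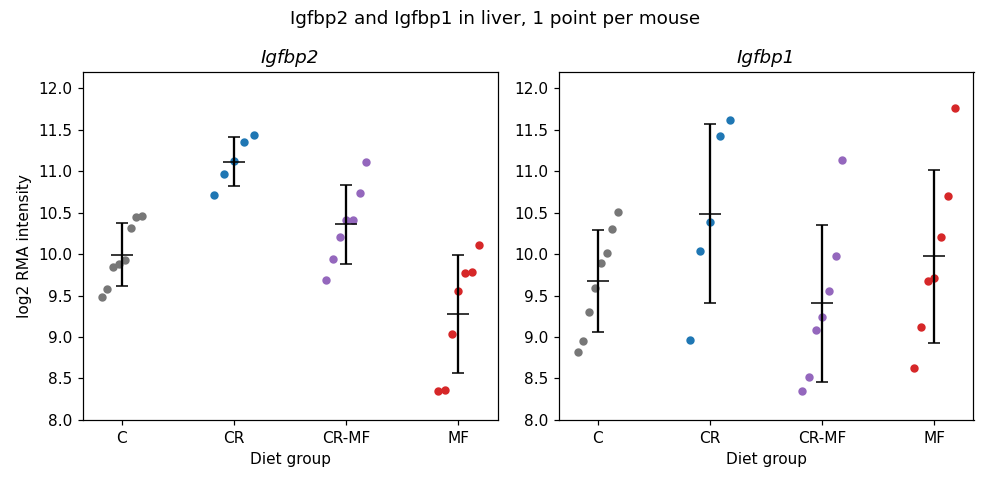
Log2 RMA intensity of Igfbp2 (left) and Igfbp1 (right) in liver, with 1 point per mouse sorted by value within each diet group, and the group mean ± SD as black bars. For Igfbp2 every CR mouse lies above every C and MF mouse, while for Igfbp1 all 4 groups overlap and SDs reach 1.08.

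Between lifelong MF and lifelong CR, Igfbp2 was 3.57-fold lower in MF, a log2 difference of -1.84 (standard error 0.27, 95% interval -2.40 to -1.28, adjusted p = 0.000685 with limma). It ranked 6 of 13993 genes by p in this comparison, in which 5.42% of all genes were called, and it was the only 1 of the 10 members called. The median difference of the members was 0.01, against -0.01 over all tested genes. The array names carry plate codes (their reading as plates is inferred), and the difference had the same sign on each plate: -1.93 on G150 with 5 MF and 3 CR mice, and -1.34 and -1.66 on G151 and G152 with 1 mouse of each group. By the well codes in these names, the CR arrays of G150 lay in row F and its MF arrays in row G. Diet and row therefore cannot be told apart on G150, while on G151 and G152 both groups lay in row G. Igfbp2 remained called between MF and CR with any single mouse left out, with adjusted p between 0.000426 and 0.00332.

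The diet switch at 24 months was addressed by setting CR-MF against each of its reference groups, which share the CR-MF arrays. The Igfbp2 level in CR-MF was 2.11-fold that in MF (log2 difference 1.08, standard error 0.25, adjusted p = 0.0240 with limma), and 5 of the 7 CR-MF mice lay above all MF mice. It was the only member called there, against 1.44% of all genes. In CR-MF against CR the Igfbp2 difference was -0.76 (95% interval -1.32 to -0.20, adjusted p = 0.215 with limma), with 5 of 7 CR-MF mice below all CR mice. By limma or by the intensity-based moderated statistic (IBMT) 0 of the 10 members were called, against 0.600% of all genes with limma. With limma 2 members had an unadjusted p under 0.05, against 1721 of all 13993 genes. The higher Igfbp2 in CR-MF than in MF was not called in a fit of these 2 groups alone (adjusted p = 0.112), on plate G150 alone (adjusted p = 0.0503), or without MF mouse 7 (0.0593) or 9 (0.0558) or CR-MF mouse 5 (0.0602), 9 (0.0555) or 13 (0.0702). Its size within plates was 1.35, 0.16 and 0.64 on G150, G151 and G152. The well codes in the array names put all CR-MF arrays, and none of another group, in row H, so the effects of switch and row cannot be told apart. The C arrays all lay in row F and the MF arrays all in row G, while CR had 3 arrays in row F and 2 in row G.

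Against the control diet, Igfbp2 was 2.18-fold higher in CR (log2 difference 1.12, standard error 0.27, adjusted p = 0.0286 with limma), again as the only member called and against 1.57% of all genes. The within-plate differences were 1.05, 1.25 and 1.12. This call ended on plate G150 alone (adjusted p = 0.145), with the well row as a block (difference 1.02, adjusted p = 0.148), and without C mouse 3 (0.0531) or 17 (0.0645) or CR mouse 1 (0.0843), 3 (0.101), 7 (0.0502) or 13 (0.0601), while the Igfbp2 difference stayed between 1.05 and 1.22 whichever mouse was left out. In MF against C the Igfbp2 difference was -0.71 (95% interval -1.21 to -0.22), and 3 of 7 MF mice lay below all C mice. These 2 groups shared no well row, so the effects of diet and row cannot be told apart between them. With limma 0 genes of the whole table (0%) were called between MF and C, 556 had an unadjusted p under 0.05, and Igfbp2 was the 1 member among them. CR-MF exceeded C by 0.37 for Igfbp2 (95% interval -0.13 to 0.86, adjusted p = 0.594 with limma), and 0 members were called against 0.300% of all genes. There 2 members had an unadjusted p under 0.05, against 1598 of all 13993 genes. IBMT called 0 members in both of these comparisons too.

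**Figure D2:**
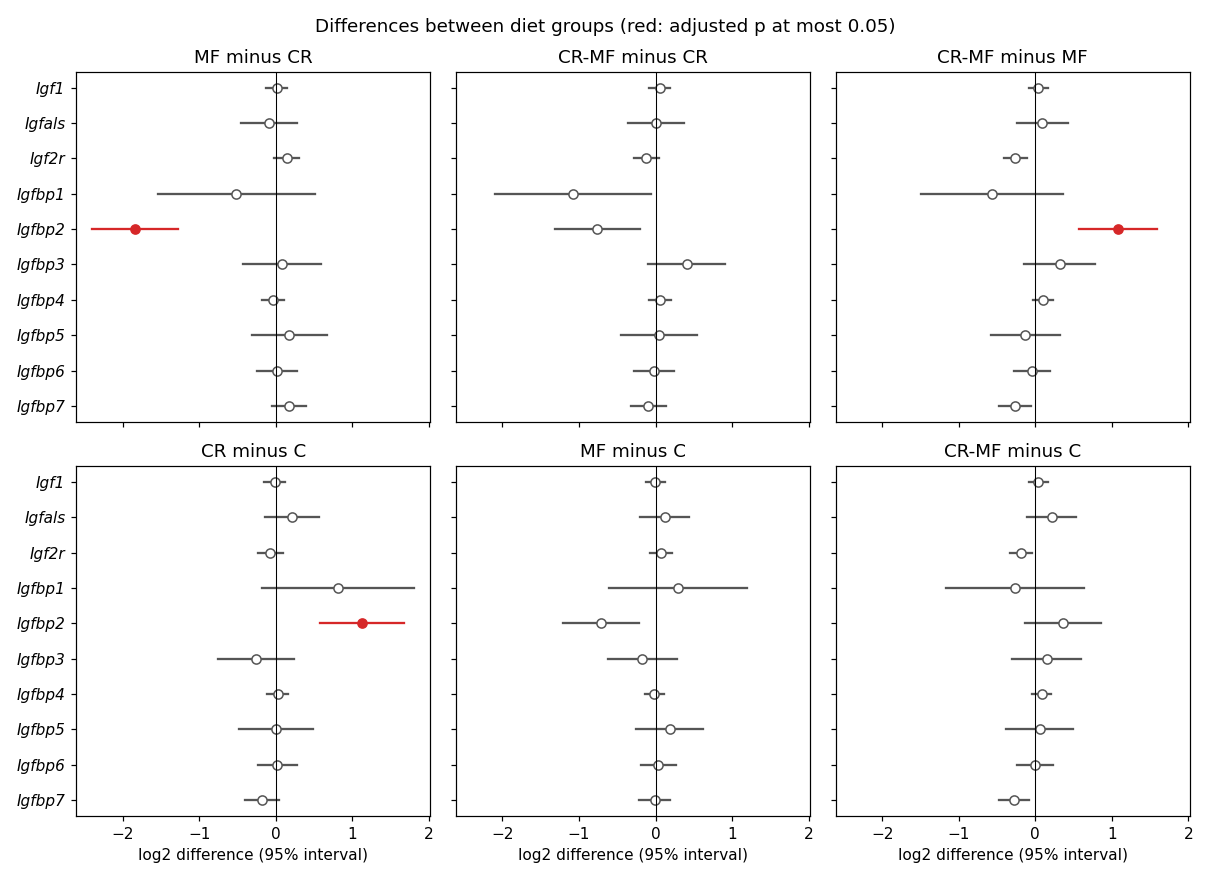
Log2 difference of each of the 10 genes in the 6 comparisons between diet groups, with 95% intervals from limma as horizontal lines and filled red points where the adjusted p was at most 0.05. Igfbp2 is red in MF minus CR (-1.84), CR-MF minus MF (1.08) and CR minus C (1.12), and no other gene is.

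The pattern of Igfbp2 over the 27 mice was most like that of 3 genes, by Pearson's r over single mice with group differences left in. The search covered the tested genes, with predicted gene models left out. The 3 genes were Upb1, an enzyme of pyrimidine breakdown (r = 0.853), Acbd5, an acyl-CoA binding protein of peroxisomes (r = 0.846), and Tk1, thymidine kinase (r = 0.846). Mean log2 levels of Upb1 were 10.83 in CR, 10.70 in CR-MF, 10.57 in C and 10.43 in MF, the same order of groups as for Igfbp2. The order was the same for Acbd5 (9.72, 9.57, 9.39 and 9.25) and for Tk1 (8.47, 8.20, 8.02 and 7.73). The genes were picked by this likeness, so the shared order is a description.

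Igfbp1, the carrier whose transcription insulin represses, spread more widely among mice of the same diet than any other member. The 5 CR mice had log2 levels of 8.97, 10.04, 10.39, 11.43 and 11.62. MF mice ranged from 8.63 to 11.76 with a median of 9.71, CR-MF mice from 8.34 to 11.14 with a median of 9.24, and C mice from 8.82 to 10.51 with a median of 9.74. All 4 groups overlapped, and a span of over 2.5 log2 units was seen inside CR, CR-MF and MF alike. The largest difference between means was that of CR-MF and CR, at -1.08 (95% interval -2.10 to -0.06, adjusted p = 0.373), and CR exceeded C by 0.81 (-0.18 to 1.81, adjusted p = 0.358). Both intervals also hold differences of the size called for Igfbp2.

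Igf1 itself was nearly level across the diets. Its 5 CR mice had log2 levels of 11.75, 11.77, 11.83, 11.84 and 11.90. Group means ± SD were 11.82 ± 0.06 in CR (n = 5), 11.87 ± 0.06 in CR-MF (n = 7), 11.83 ± 0.13 in C (n = 8) and 11.83 ± 0.14 in MF (n = 7). The 6 Igf1 differences lay between -0.01 and 0.05, and the interval for MF against CR ran from -0.13 to 0.15 and that for CR against C from -0.15 to 0.12. The arrays measured hepatic messenger RNA and not IGF1 protein in plasma.

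The partners of the large complex were not called either. Igfals, which encodes the acid-labile subunit, had CR levels of 8.83, 9.04, 9.24, 9.25 and 9.33, and group means of 9.14 in CR, 9.14 in CR-MF, 9.05 in MF and 8.93 in C with SDs from 0.20 to 0.39. Igfbp3, the main plasma carrier, had means of 7.75 in CR, 7.84 in MF, 8.01 in C and 8.16 in CR-MF with SDs from 0.31 to 0.53, and its largest difference was that of CR-MF above CR at 0.41 (95% interval -0.10 to 0.91, adjusted p = 0.540). Igfbp3 was low in 1 MF mouse and 1 C mouse, at 6.80 in MF mouse 9 and 6.97 in C mouse 9, against 7.74 or more in the rest of those 2 groups. Igfbp5, a carrier that also binds extracellular matrix, had means between 6.61 and 6.80 and SDs from 0.26 to 0.63, and all its differences were within 0.19.

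Among the other small-complex carriers, Igfbp4, an inhibitor of IGF action that PAPP-A cleaves, had means of 12.09 in MF, 12.10 in C, 12.13 in CR and 12.18 in CR-MF, with differences no larger than 0.10. Igfbp6, which prefers IGF2, had means of 5.31 to 5.35, and its values of 4.94 to 5.84 lay above the intensity minimum of the filter (4.32 on the log2 scale) in all mice. The intervals for MF against CR were -0.18 to 0.10 for Igfbp4 and -0.24 to 0.28 for Igfbp6.

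Igf2r and Igfbp7 had their lowest means in CR-MF, without a call. Igf2r, the receptor that takes IGF2 to lysosomes for breakdown, had means of 8.45 in MF, 8.38 in C, 8.31 in CR and 8.19 in CR-MF. Its 7 CR-MF mice ranged from 8.06 to 8.40 (median 8.12) and its 7 MF mice from 8.29 to 8.70 (median 8.34). CR-MF lay below MF by a log2 difference of -0.26 (standard error 0.07, adjusted p = 0.0637), which passed after quantile normalization (adjusted p = 0.0449), without MF mouse 13 (0.0371) or without CR-MF mouse 3 (0.0360). Within plates the Igf2r difference was -0.28 on G150, 0.10 on G151 and -0.52 on G152.

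Igfbp7, a protein of vessel walls and matrix that binds IGFs weakly, had means of 11.82 in C, 11.81 in MF, 11.64 in CR and 11.55 in CR-MF. It differed by -0.26 between CR-MF and MF (adjusted p = 0.196) and by -0.27 between CR-MF and C (adjusted p = 0.270), the second at an unadjusted p of 0.00857. In whole liver, fewer cells of a type and less RNA per cell cannot be told apart. Summed log2 levels of 12 endothelial markers ran from 12.42 to 12.94 in CR-MF and from 12.48 to 13.11 in MF, and those of 14 stellate cell and fibroblast markers reached 13.25 (median 12.91) and 13.41 (median 13.14). Between CR-MF and MF 1.44% of all genes were called, and 2064 of 13993 had an unadjusted p under 0.05. Here 0 of the 12 endothelial markers were called by limma, with 3 at an unadjusted p under 0.05. Of the 14 stellate markers 1, Colec11, was lower, with 6 at an unadjusted p under 0.05. The median differences were -0.18 and -0.23. Between CR-MF and C 0.300% of all genes were called, and 1598 of 13993 had an unadjusted p under 0.05. There 0 markers of either list were called by limma, with median differences of -0.19 and -0.19. An unadjusted p under 0.05 was found for 4 endothelial and 5 stellate markers. The mean of every marker was above the intensity minimum in each group, and the part of these cells in the Igfbp7 values was not tested.

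**Figure D3:**
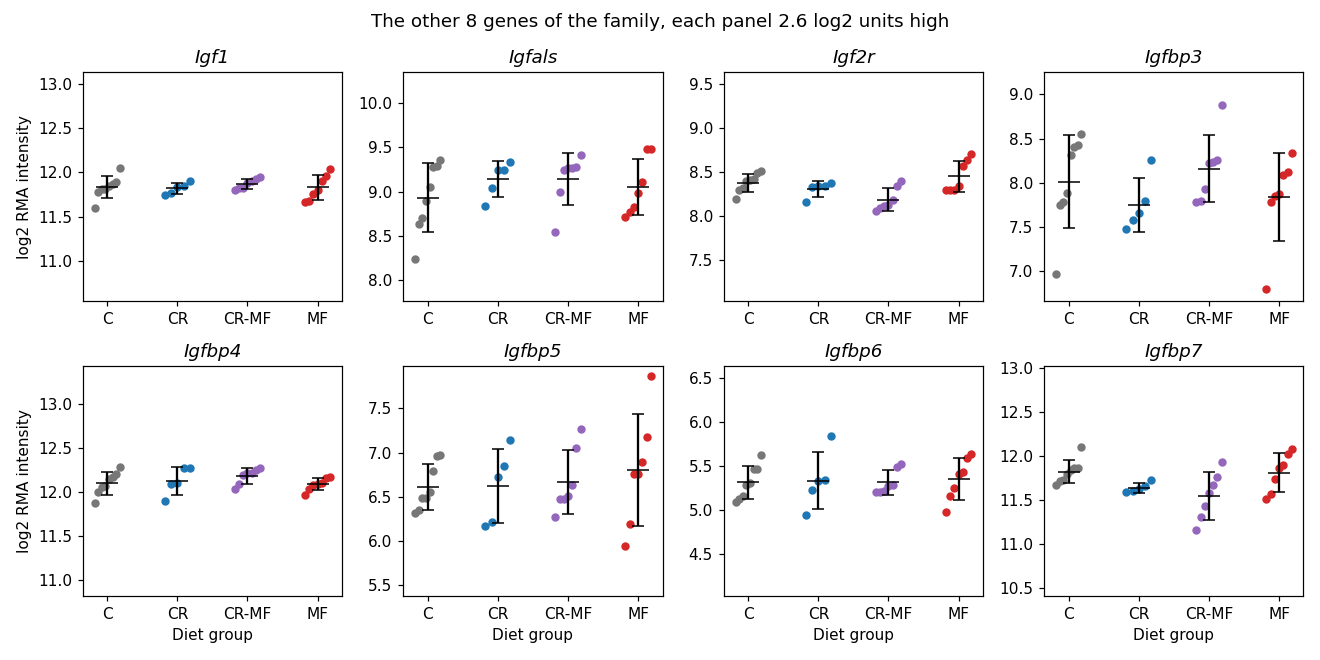
Log2 RMA intensity of the 8 genes other than Igfbp1 and Igfbp2, with 1 point per mouse sorted by value within each diet group, black bars for the mean ± SD, and panels of equal height in log2 units. Groups overlap in every panel, the Igf1 means lie between 11.82 and 11.87, and the CR-MF mean is the lowest of the 4 for Igf2r (8.19) and Igfbp7 (11.55).

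The tissue carried the markers of liver in all groups, since the summed log2 level of 10 hepatocyte markers lay between 16.43 and 16.65 in every mouse. Between MF and CR, where Igfbp2 was called, 5.42% of all genes were called. There 2 of 5 hepatocyte markers that passed the filter were lower (Tat and Cps1), and 2 of 14 stellate markers were higher (Lum and Pdgfrb). Of 12 endothelial markers 1 was lower (Bmp2), and 3 of 12 Kupffer cell and macrophage markers were called (C1qb and Gpnmb higher, Cd163 lower). Of 6 cholangiocyte markers 2 were higher (Tspan8 and Muc1). Summed Kupffer marker levels were 12.54 to 13.03 in CR, 12.75 to 14.08 in MF, 12.53 to 14.12 in CR-MF and 12.71 to 14.31 in C, and cholangiocyte sums were 8.28 to 8.45, 8.15 to 8.91, 8.21 to 8.67 and 8.02 to 8.50. Of the 8 cholangiocyte markers summed, 5 in CR and 6 in MF had a mean above the intensity minimum. Tspan8 was above it in 1 of 5 CR mice and 6 of 7 MF mice. The part of these cell types in the Igfbp2 difference was not tested. Array medians were 5.38 to 5.48 and correlations between arrays 0.975 to 0.991.

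The ligands, receptors and proteases around the binding proteins gave few calls. Of 16 listed genes 8 were tested. In MF against CR 1 was higher and 0 were lower, against 5.42% of all genes called, with a median difference of 0.16. There 4 of the 8 genes had an unadjusted p under 0.05 with limma, against 3315 of all 13993 genes. The called gene was Stc2, which encodes an inhibitor of the IGFBP4 protease PAPP-A, with means of 4.99 in MF and 4.48 in CR (log2 difference 0.51, standard error 0.14, adjusted p = 0.0370). Only 3 of 5 CR mice had Stc2 above the intensity minimum, and the call ended when any of 8 mice was left out (adjusted p up to 0.1005, without CR mouse 1, 3 or 13 or MF mouse 1, 7, 9, 11 or 15), on plate G150 alone (0.217), in a fit of the 2 groups (0.0816) and with well row as a block (0.0941). Igf1r, the signalling receptor for IGF1, had means of 6.64 in MF, 6.42 in C, 6.24 in CR and 6.20 in CR-MF and was not called (adjusted p = 0.0792 for MF against CR and 0.0667 for CR-MF against MF). The other 5 comparisons had 0 calls in this list with limma and with IBMT. They had between 0 and 2 genes of the list at an unadjusted p under 0.05, against 556 to 2769 of all 13993 genes.

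Growth hormone signalling, which acts upstream of Igf1 and Igfals, had 15 of 16 listed genes tested. Stat5a, a transcription factor activated by the growth hormone receptor, was higher in MF than in CR, with every MF mouse (7.74 to 8.66) above every CR mouse (7.30 to 7.60). Such a lack of overlap was not counted over all genes. Jak2 of the same list also had no overlap between MF and CR and was not called (adjusted p = 0.103 with limma). The log2 difference of Stat5a was 0.51 (standard error 0.12, adjusted p = 0.0131), and Stat5a was the only gene of the list called in any comparison. Its call ended on plate G150 alone (adjusted p = 0.0588), in a fit of the 2 groups (0.0672) and with well row as a block (0.205). The median of the list was 0.17 between MF and CR, where 5.42% of all genes were called. Ghr, the receptor itself, had means of 11.65 in CR-MF, 11.59 in CR, 11.49 in C and 11.45 in MF and was not called (adjusted p = 0.171 for MF against CR and 0.0800 for CR-MF against MF).

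Insulin signalling and FOXO target genes, the group to which Igfbp1 is usually assigned, had 15 of 16 listed genes tested. Of these, 4 were lower and 0 higher in MF than in CR, against 5.42% of all genes called, with a list median of -0.24. Ppargc1a, a coactivator of gluconeogenesis, differed by -1.04 (adjusted p = 0.00236 with limma) and Klf15, a factor of amino acid use in fasting, by -0.66 (adjusted p = 0.00189). Both had no overlap between the groups, a trait not counted over all genes. Irs2, an adaptor of the insulin receptor that FOXO factors induce, differed by -0.81 (adjusted p = 0.0131), and Pck1, a key enzyme of gluconeogenesis, by -0.40 (adjusted p = 0.0182). The Irs2 call ended without CR mouse 3 (adjusted p = 0.0558), in a fit of the 2 groups (0.0528) and on plate G150 alone (0.215). The Pck1 call ended without CR mouse 1 or 3 (adjusted p up to 0.0635), on plate G150 alone (0.146) and with well row as a block (0.0728), and the Ppargc1a call with that block (0.0910).

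In CR against C, 2 genes of this list were higher and 0 lower (median 0.24), against 1.57% of all genes called. These were Ppargc1a by 0.97 (adjusted p = 0.0091 with limma) and Klf15 by 0.44 (adjusted p = 0.0353). With the well row as a block neither was called (adjusted p = 0.0808 and 0.136). The Klf15 call also ended on plate G150 alone (0.116) and without any of 7 single mice (C mouse 3, 5 or 17, or CR mouse 1, 3, 7 or 13, adjusted p up to 0.125). In CR-MF against CR only Ppargc1a was lower (median of the list -0.25), against 0.600% of all genes called. In CR-MF against MF 0 genes of the list were called with limma or IBMT, against 1.44% of all genes, and the list median was 0.05. There 2 genes of the list had an unadjusted p under 0.05, against 2064 of all 13993 genes. For Igfbp2 the CR-MF mean lay between CR and MF. The same held for Klf15 (9.79 in CR, 9.42 in CR-MF and 9.14 in MF) and Pck1 (12.95, 12.71 and 12.55). The Irs2 mean of CR-MF also lay between (8.16, 7.47 and 7.35), but close to MF and below the C mean of 7.61. Its difference between CR-MF and MF was 0.12 (adjusted p = 0.789 with limma). For Ppargc1a the CR-MF mean was 8.16 against 8.17 in MF and 9.21 in CR.

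Covariation among mice on the same diet was measured after subtracting each group mean, over the 45 pairs of members and with permutation within groups. Igfals and Igfbp4 rose and fell together (Pearson's r = 0.813, permutation p = 1e-05, the smallest that 100000 permutations can give, adjusted p = 0.00045, Spearman's rho = 0.824, permutation p = 1e-05, n = 27). It was the only pair past the adjusted threshold. Its r was 0.863 among the 19 mice of plate G150 and 0.726 without C mouse 17 and CR-MF mouse 15, the mice with the most extreme Igfals values (adjusted p = 0.0018 over 45 pairs). Igf1 and Igfals, both driven by growth hormone, had r = 0.447 (permutation p = 0.0423, adjusted p = 0.238, rho = 0.434), which did not pass, and 8 pairs had an unadjusted p under 0.05. Igf2r and Igfbp3 had r = -0.426 (permutation p = 0.0394, adjusted p = 0.238), and r = -0.626 (adjusted p = 0.0187) without C mouse 13 and MF mouse 5. Igfbp1 and Igfbp2 had r = -0.464 (permutation p = 0.0282, adjusted p = 0.238, rho = -0.410), and r = -0.223 without MF mouse 7 and CR-MF mouse 15.

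**Figure D4:**
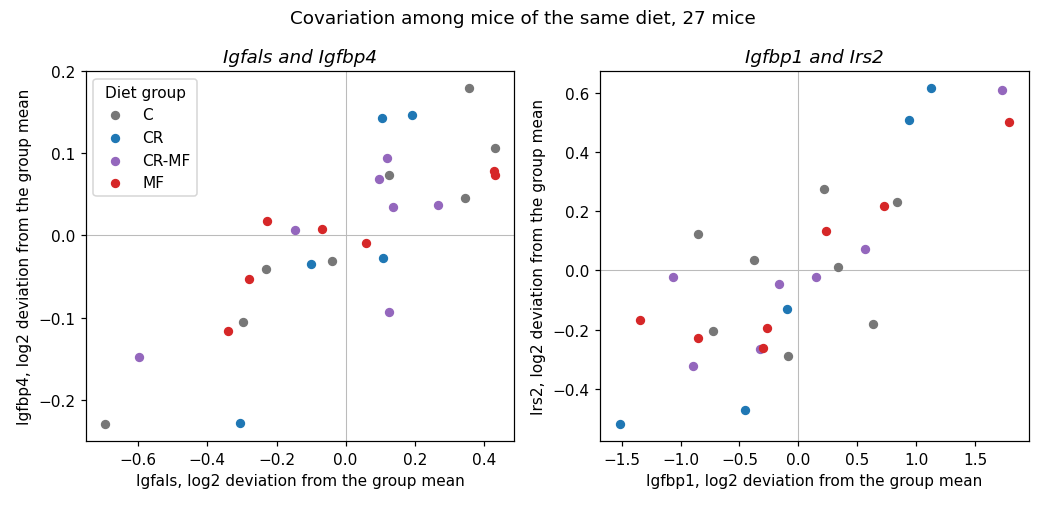
Deviation of each of 27 mice from its diet group mean, in log2 units, for Igfals against Igfbp4 (left, r = 0.813) and for Igfbp1 against Irs2 (right, r = 0.795), with points coloured by diet group. The left panel has points along a rising line in all 4 groups, and in the right panel 4 mice at the upper right have the highest deviations of both genes.

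Igfbp1 and Igfbp2 were also set against genes of the growth hormone and insulin lists, a family of 60 pairs added after the values had been seen. Of these, 6 passed the adjusted threshold, and 5 of them involved Igfbp1. With Irs2, Igfbp1 had r = 0.795 (permutation p = 3e-05, adjusted p = 0.0018, rho = 0.725, permutation p = 0.00018, and r = 0.826 among the 19 mice of plate G150). The other 4 were Trib1, a pseudokinase of lipid metabolism (r = 0.717), the phosphatase gene Ptpn2 (0.713), Stat3, which conveys cytokine signals (0.656), and Socs3, an inhibitor of them (0.628). Igfbp2 had a negative relation with Ptpn2 (r = -0.684, permutation p = 0.0012, adjusted p = 0.0122, rho = -0.697). Without the 2 mice of most extreme value for Igfbp1 (MF mouse 7 and CR-MF mouse 15) or Igfbp2 (MF mice 9 and 7), 0 of the 60 pairs passed, with r = 0.702 for Igfbp1 and Irs2 (permutation p = 0.00143, adjusted p = 0.0858) and r = -0.597 for Igfbp2 and Ptpn2 (permutation p = 0.0056, adjusted p = 0.105). The adjusted calls thus needed those mice, while both relations kept their sign and an unadjusted p under 0.05 without them.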

How the data were processed

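Liver RNA of 27 mice was hybridized to 1 array each. The authors processed the arrays with Robust Multiarray Average (RMA), which corrects background, quantile-normalizes and summarises probes, and deposited 1 log2 intensity for every transcript cluster and array. Precision is limited by the number of arrays, and no sequencing depth applies. Each mouse is a biological replicate. Of 35556 clusters, 21218 carried 1 gene symbol, 1881 several and 12457 none listed, and only the first were named, with the cluster of highest mean kept per gene. A gene was tested if 5 or more arrays had an intensity above 20 and the interquartile range exceeded 0.1 (13993 kept, 4827 removed). Groups, taken from the labels, were compared with limma 3.58.1 in R 4.3.3 (lmFit and eBayes with an intensity trend, 4 group means, 6 contrasts, 23 residual degrees of freedom) and Benjamini-Hochberg adjustment. Overlap between groups was read for named genes only, and the share of all genes without overlap was not counted. The fits were tested on simulated data. Correlations used deviations from group means with 100000 within-group permutations (two-sided, numpy 2.4.6).

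Named genes are the 10 members, up to 4 called genes per pathway list and comparison, and the 3 genes most like each called member. Marker genes called are named as well. Outside this rule, the receptors Igf1r and Ghr are named without a call, and so is Jak2 for its lack of overlap. Trib1, Ptpn2, Stat3 and Socs3, also not called, are named for their correlations. The members and lists were chosen with earlier results of these data known. Upstream sequences are RefSeq windows of GRCm38.p6. Alternatives were quantile normalization, median centring, no filter, a stricter filter (intensity above 100), the mean of clusters, eBayes without trend, robust eBayes, IBMT, fits of 2 groups, plate, well row and animal number as blocks, plate G150 alone, and leaving out each mouse. The well row block was added after the data were seen. Animal numbers were taken from mouse IDs. Listed genes without a cluster of their own (7 genes) were not analysed here.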

Additional observations from a re-analysis of the deposited data

Results flagged for a closer look

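Of 40 sets of values (10 genes in 4 diet groups), 4 held a mouse whose distance to its nearest neighbour was a larger share of the group's range than expected at the 95% level of Dixon's test, and chance flags about 1 set in 20. MF mouse 9 had an Igfbp3 value of 6.80, with the next MF mouse at 7.78, and CR-MF mouse 11 had the highest Igfbp3 of its group at 8.88, with the next at 8.26. CR mouse 7 had an Igf2r value of 8.15, against 8.32 in the next CR mouse. C mouse 13 had an Igfbp7 value of 12.10, against 11.87 in the next C mouse. None of these sets enters a called difference.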

How the results depend on the processing

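The difference of Igfbp2 between MF and CR was called under all alternatives run and with any mouse left out. The number of members called between CR-MF and MF (1, Igfbp2) became 2 after quantile normalization (Igf2r added), and 0 in a fit of 2 groups, on plate G150 alone and with the replicate block, and ran from 0 to 2 when single mice were left out. Between CR and C it (1, Igfbp2) became 0 on plate G150 alone, with the replicate block and with the well row block, and ran from 0 to 1 without single mice. The cause was not tested, beyond the smaller number of arrays in some of these fits. Of the member pairs past the adjusted correlation threshold (1), there were 2 without the 2 farthest mice, Igf2r and Igfbp3 being added. Of 57 member differences that were not called, only that of Igf2r between CR-MF and MF was called under any setting (3 settings).

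The labels state no pairing by animal number, and the main fit did not pair the samples. Same-numbered mice of different groups were more often alike. Of 27 such pairs 13 had a correlation of their deviations over 0.1 (median 0.0942), against 66 of 244 differently numbered pairs (median -0.0235). These correlations cannot decide whether the number marks a shared block. With the number as a replicate block, the Igfbp2 differences were -1.82 between MF and CR (adjusted p = 0.00521), 1.01 between CR-MF and MF (0.0574) and 1.08 between CR and C (0.101). What the arrays can resolve is given by the printed intervals.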
